A study of Mus musculus with 20 samples.

Results

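Acod1 (aconitate decarboxylase 1, ENSMUSG00000022126, also known as Irg1) encodes the enzyme that makes itaconate, and its expression was followed over 5 treatments of mouse macrophages. It is 1 of the 78409 genes listed in the deposited matrix. Acod1 was chosen by its measured response to airway fluid in these same libraries, so its levels and fold changes are given here as a description, with no test. Tests are given only for other genes.

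Itaconate is a small dicarboxylic acid that activated macrophages make in their mitochondria. Citrate from the tricarboxylic acid (TCA) cycle is dehydrated to cis-aconitate by mitochondrial aconitase, and ACOD1 removes a carboxyl group from cis-aconitate to give itaconate. The gene is nearly silent in resting macrophages and is switched on through toll-like receptors and interferons, by way of NF-κB, C/EBPβ and interferon regulatory factors. Itaconate inhibits succinate dehydrogenase, modifies KEAP1 so that the antioxidant factor NRF2 is released, and can restrain the production of inflammatory cytokines. It can also be taken up from outside the cell, be delivered to vacuoles that hold bacteria, or be broken down through its coenzyme A form.

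The cells were bone marrow-derived macrophages (BMDMs), which are bone marrow progenitors grown into macrophages with L929 fibroblast-conditioned medium. All BMDMs were wild-type cells of female C57BL/6J mice. They were used at day 7 of culture at 200000 cells per well, in medium without serum. The 5 groups received PBS, RNY1+/+ EVFx, RNY1-/- EVFx, RNY1+/+ ProteinFx or RNY1-/- ProteinFx, with 4 libraries each. EVFx is the extracellular vesicle-enriched, and ProteinFx the protein-enriched, size exclusion fraction of bronchoalveolar lavage fluid (BALF) of mice whose airways were inflamed with ovalbumin (OVA). The genotype is therefore that of the mouse that gave the fluid: RNY1-/- mice lack both alleles of RNY1, a Y RNA, and the macrophages of all 5 groups carry it. EVFx of both genotypes was added at 35000000 particles per µL, and ProteinFx of both genotypes at 0.75 µg protein per µL, after 5 days of storage in the cold. Since the fractions were dosed in different units, their levels stand side by side below and were not tested against each other. PBS stood in for the fluid, and no group received fluid from uninflamed mice. Nothing in the labels ties the 4 libraries of a group to separate cultures or fluid pools, so p-values measure the spread between these samples, which may be technical.

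Total counts per library ran from 2510005 to 8277366. All library names share the same prefix, and what this prefix marks is not stated. All 10 macrophage markers examined were detected in every group, with summed levels of 8754 to 13698 CPM (counts scaled to a common library total) per library. Of 12 neutrophil markers, 7 to 9 passed 3 counts in some library of a group, led by S100a8 and S100a9, while Ly6g had at most 1 count in any library and Mpo and Elane at most 3. The summed neutrophil markers were 353 to 374 CPM with PBS, 176 to 232 with RNY1+/+ EVFx, 212 to 290 with RNY1-/- EVFx, 254 to 376 with RNY1+/+ ProteinFx and 287 to 430 with RNY1-/- ProteinFx. Acod1 followed another order, with its lowest level in PBS, and the part of other cells in its level was not tested. In such bulk samples, fewer cells of a type and less RNA per cell cannot be told apart. PBS replicate 3 stood apart from the other PBS libraries, at distances of 53.1 to 71.1 against 26.0 to 38.1 among the others. The RNY1-/- ProteinFx libraries fell into replicates 1 and 2 (distance 26.0) and replicates 3 and 4 (39.3), with 50.3 to 62.5 between these pairs. Below, some results that rest on these libraries are also given without them.

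Acod1 lies on mouse chromosome 14, and its annotated transcript has 5 exons and 2623 bases with a GC content of 47.6% (GENCODE, GRCm38). The 250 bases before its start are shown because they lie directly before the gene described here and hold letters that NF-κB and interferon regulatory factors are known to read. They are chr14:103046762-103047011, plus strand, from RefSeq on GRCm38.p6, which is not the GRCm39 build used for the counts. Capitals mark matches to motifs chosen after the sequence was seen and searched on both strands, in the order PU.1 (GAGGAA), κB (GGAANTTCC), IRF (AANNGAAA) and the TATA box (TATAAA).
Acod1 upstream: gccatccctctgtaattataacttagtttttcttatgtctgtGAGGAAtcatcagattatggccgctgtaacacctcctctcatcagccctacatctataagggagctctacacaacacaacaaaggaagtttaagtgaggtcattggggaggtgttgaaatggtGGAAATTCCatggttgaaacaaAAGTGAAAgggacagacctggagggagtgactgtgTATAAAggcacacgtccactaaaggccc

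The κB match stands 85 to 77 bases before the start, the IRF match at 63 to 56, the TATA match at 28 to 23 and the PU.1 match at 208 to 203. Of 32851 windows of the same length, 0.813% hold the κB letters, 21.3% the IRF letters, 12.4% the TATA letters and 23.3% the PU.1 letters. The letters TTCNNNGAA (GAS, 7.02% of windows) and TGANTCA (AP-1, 6.75%) are not in this window. These matches are a description and were not tested as binding sites.

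With PBS, Acod1 stood at 2.46, 3.55, 5.72 and 2.49 CPM in replicates 1 to 4. These levels rest on only 12, 23, 25 and 14 counts, which gives counting errors of 20% to 28.9% of the level. PBS replicate 3 was the highest of the 4. With RNY1+/+ EVFx, Acod1 was at 883, 972, 875 and 1006 CPM, and with RNY1-/- EVFx at 703, 720, 595 and 842 CPM. In deposited CPM, the highest RNY1-/- EVFx library (replicate 4) thus lay just below the lowest RNY1+/+ EVFx library (replicate 3). CPM do not hold edgeR's scaling factors, which were 0.895 and 0.942 for these libraries. Dividing by the factors puts the RNY1-/- library above the RNY1+/+ one, so the groups are not separated on that scale. ProteinFx gave 543, 556, 495 and 867 CPM with RNY1+/+ fluid and 152, 129, 152 and 127 CPM with RNY1-/- fluid. Replicate 4 of RNY1+/+ ProteinFx stood far above its group, while the RNY1-/- ProteinFx libraries were close together and far below every RNY1+/+ ProteinFx library. All 16 treated libraries were above all 4 PBS libraries.

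**Figure D1:**
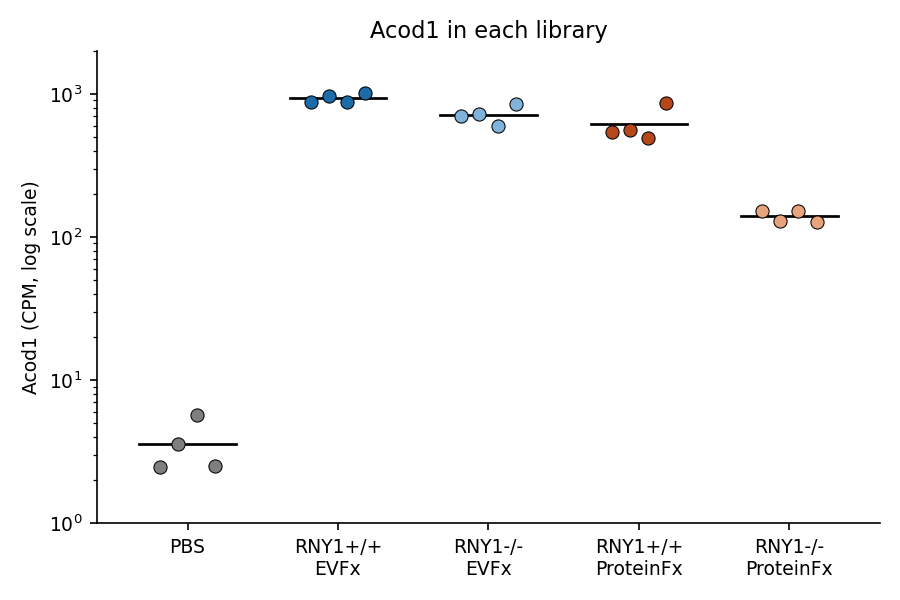
Acod1 in CPM (log axis) in each of the 20 libraries, grouped by treatment, with a line at each group's mean. PBS libraries lie between 2.46 and 5.72 CPM, RNY1-/- ProteinFx libraries between 127 and 152, and the other treated libraries between 495 and 1006.

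Group means were 3.56 ± 1.53 CPM with PBS, 934 ± 65.2 with RNY1+/+ EVFx, 715 ± 101 with RNY1-/- EVFx, 615 ± 170 with RNY1+/+ ProteinFx and 140 ± 13.5 with RNY1-/- ProteinFx (SD, n = 4 each). In the order of the levels, RNY1-/- EVFx and RNY1+/+ ProteinFx were neighbours whose libraries overlapped, at 595 to 842 and 495 to 867 CPM. Every other pair of neighbours was separated in deposited CPM, but only narrowly for EVFx of both genotypes, where the gap depends on the scaling. The ratio of mean CPM to PBS was 263 for RNY1+/+ EVFx, 201 for RNY1-/- EVFx, 173 for RNY1+/+ ProteinFx and 39.4 for RNY1-/- ProteinFx.

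On the log2 scale, edgeR's fit gave Acod1 a fold change against PBS of 8.23 (standard error 0.22) with RNY1+/+ EVFx, the 4th highest of 10797 genes tested. With RNY1-/- EVFx it was 7.91 (0.25), the 2nd highest of 10729. With RNY1+/+ ProteinFx it was 7.63 (0.30), the 3rd highest of 10835, and with RNY1-/- ProteinFx 5.38 (0.23), the 9th highest of 10855. These comparisons share the PBS libraries. Without PBS replicate 3, which had the most Acod1 of its group, the values were 8.51, 8.20, 7.90 and 5.65 in the same order. Acod1 was thus near the top of the list in each treatment, but at a lower place with RNY1-/- ProteinFx, where Arg1, the arginase of alternatively activated macrophages, was the highest gene of all.

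Between genotypes of the fluid, Acod1 differed in both fractions and by unequal amounts. Mean CPM of Acod1 was 23.4% lower with RNY1-/- than with RNY1+/+ EVFx. The edgeR fit, which scales libraries otherwise than CPM, gave a log2 fold change of -0.31 (standard error 0.10). Of the 10321 genes tested, 27.6% fell further. With RNY1-/- ProteinFx, mean CPM of Acod1 was 4.39-fold lower than with RNY1+/+ ProteinFx. The fit gave a log2 fold change of -2.23 (0.18), the 12th lowest of 10471 genes. The genotype effect in ProteinFx minus that in EVFx was -1.92 (0.22) on the log2 scale. Without RNY1+/+ ProteinFx replicate 4, the high library, the ProteinFx value was -2.0 and the difference -1.70. With only replicates 1 and 2 of RNY1-/- ProteinFx the log2 fold change was -2.28, and with only replicates 3 and 4 it was -2.19.

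**Figure D2:**
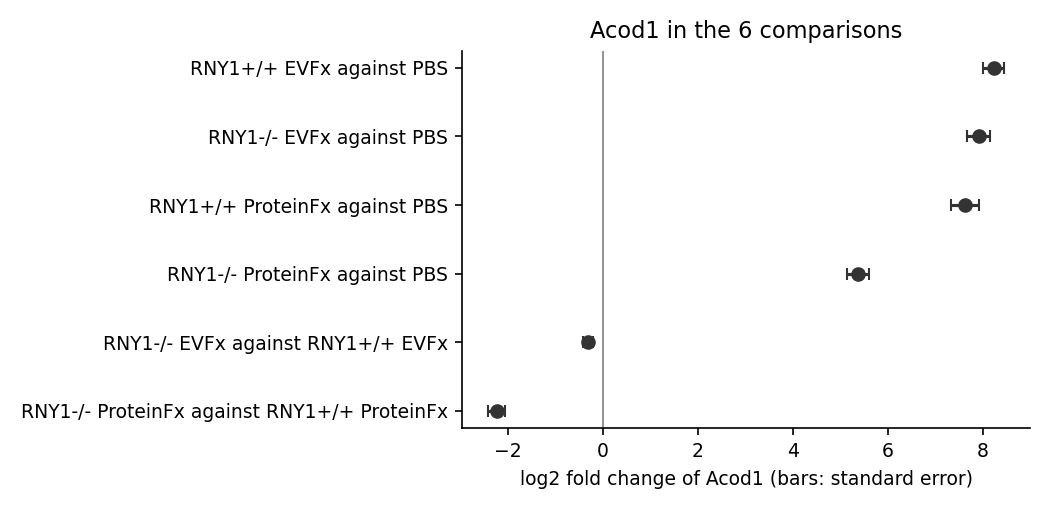
Log2 fold change of Acod1 in the 6 comparisons, from edgeR's fit, with bars for 1 standard error. The comparisons against PBS lie between 5.38 and 8.23, and the genotype comparisons at -0.31 for EVFx and -2.23 for ProteinFx.

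Other genes that make, move, sense or induce itaconate were taken from 8 lists with 132 genes. A gene was called changed at an adjusted p under 0.05 (edgeR's quasi-likelihood test, Benjamini-Hochberg adjustment over all genes tested) and an absolute log2 fold change above 1. In the counts below, genes that rose or fell are those called, so other genes may pass the adjusted p with a smaller change. With RNY1+/+ EVFx, 49 of the 118 list genes tested rose and 3 fell against PBS, while 8.24% of all genes tested rose and 8.19% fell. RNY1-/- EVFx raised 38 and lowered 8 of 116, against 9.01% and 13.5% of all genes. RNY1+/+ ProteinFx raised 40 and lowered 5 of 117 (8.96% and 12.4% of all genes), and RNY1-/- ProteinFx raised 28 and lowered 4 of 115 (6.31% and 7.99%). The share of list genes that rose was several times the share of all genes in each comparison, which for lists built around macrophage activation is a description. The median log2 fold change of the list genes tested was 0.71, 0.58, 0.47 and 0.34 in the same order, beside -0.03 over all genes in each comparison. Scaling by total counts moved the median of all genes by -0.18, -0.24, -0.17 and -0.06 on the log2 scale. Rising and falling genes then numbered 738 and 1223 with RNY1+/+ EVFx in place of 890 and 884, 698 and 2138 with RNY1-/- EVFx in place of 967 and 1449, and 774 and 1847 with RNY1+/+ ProteinFx in place of 971 and 1340. Removing trends with GC content and length left 592 rising and 462 falling genes with RNY1-/- ProteinFx in place of 685 and 867. That comparison gave 558 and 360 with only its replicates 1 and 2, and 951 and 1370 with only replicates 3 and 4. Without PBS replicate 3, rising and falling genes numbered 949 and 957 with RNY1+/+ EVFx and 1237 and 1668 with RNY1-/- EVFx. They then numbered 1200 and 1654 with RNY1+/+ ProteinFx and 846 and 1182 with RNY1-/- ProteinFx.

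**Figure D3:**
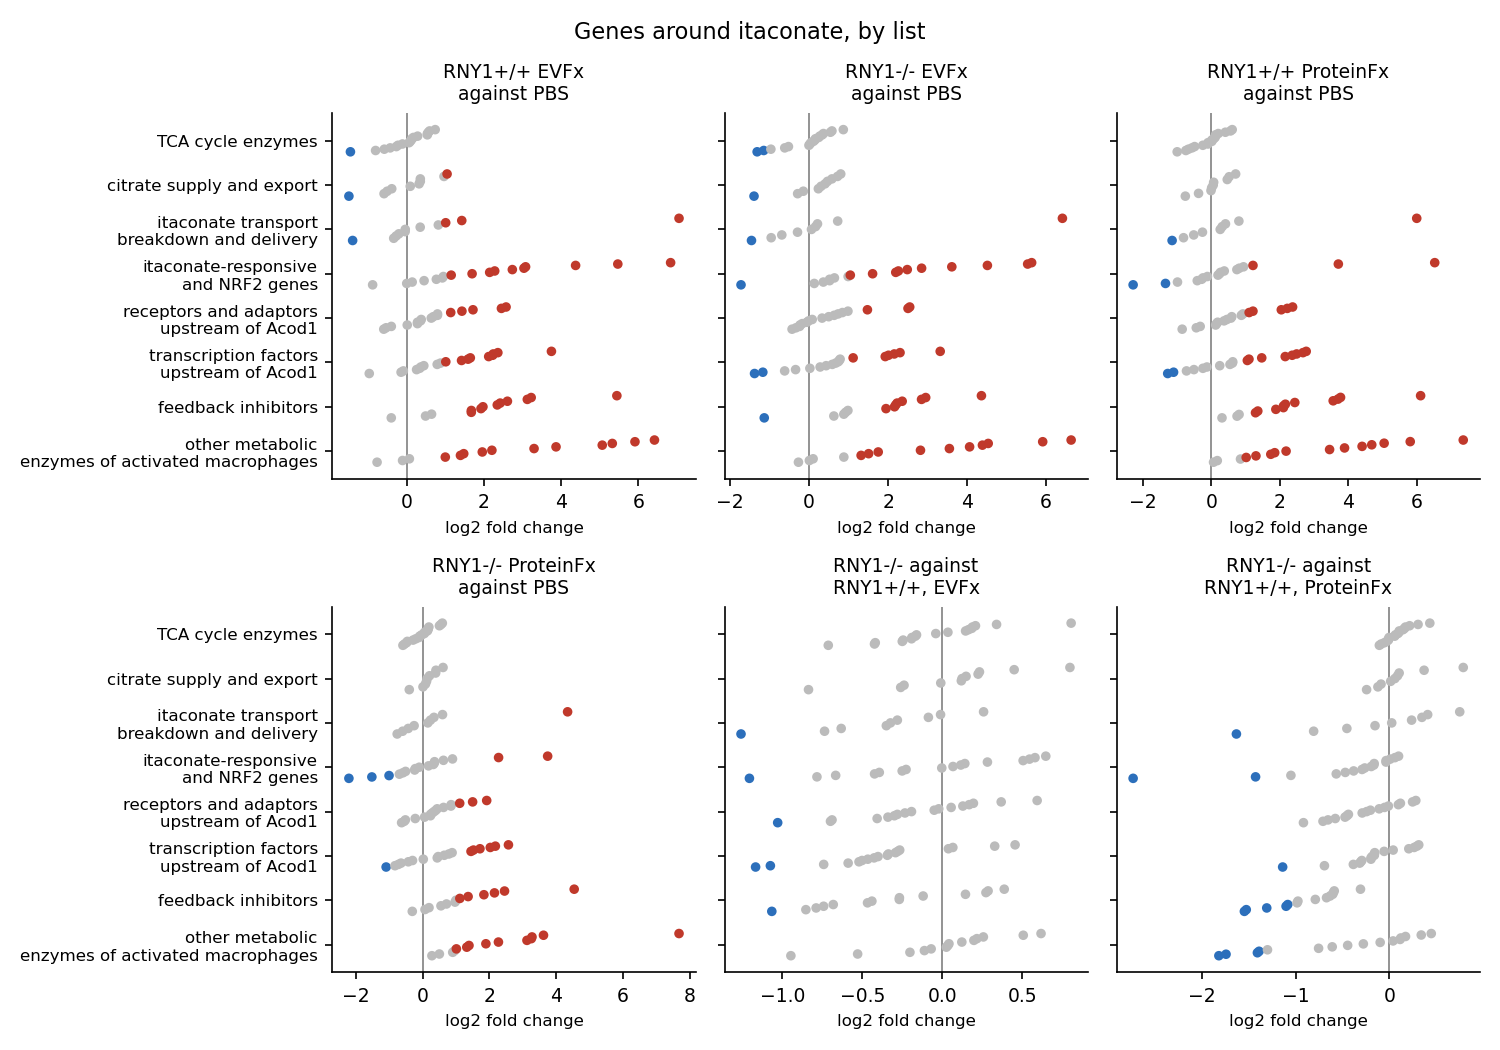
Log2 fold change (x axes, which differ between panels) of each list gene tested, by list, in the 6 comparisons. Red points were called higher and blue points lower. Grey points were not called, and include genes with an adjusted p under 0.05 but a fold change inside the limit. TCA cycle enzymes cluster around 0 in every panel. No point is red in the genotype panels, where 6 (EVFx) and 13 (ProteinFx) list genes were called lower.

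The enzymes that supply the substrate moved little. All 18 TCA cycle enzymes were tested and none rose in any of the 4 comparisons with PBS. Suclg2, a subunit of succinyl-CoA ligase, fell from 16.7 ± 2.34 CPM with PBS to 5.34 ± 1.36 with RNY1+/+ EVFx (log2 fold change -1.46, adjusted p = 8.31e-05) and to 5.72 ± 0.662 with RNY1-/- EVFx (-1.31, adjusted p = 5.78e-05). Idh3g, a subunit of isocitrate dehydrogenase, fell with RNY1-/- EVFx, from 23.8 ± 5.61 to 9.20 ± 2.71 CPM (-1.15, adjusted p = 0.00134), a call lost without RNY1-/- EVFx replicate 4. No TCA cycle enzyme was called with ProteinFx of either genotype. The median over the 18 enzymes was between 0.01 and 0.13 in the 4 comparisons.

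Among 12 genes of citrate supply and export, 10 were tested with EVFx and 9 with ProteinFx. Pdk1, a kinase that shuts pyruvate dehydrogenase, fell from 35.2 ± 5.65 CPM with PBS to 11.1 ± 2.43 with RNY1+/+ EVFx (-1.50, adjusted p = 4.8e-05) and 11.3 ± 2.59 with RNY1-/- EVFx (-1.39, adjusted p = 5.93e-05). It stood at 24.3 ± 6.08 and 44.2 ± 8.12 CPM with RNY1+/+ and RNY1-/- ProteinFx and was called in neither comparison with PBS. Acly, which splits exported citrate into acetyl-CoA and oxaloacetate, rose with RNY1+/+ EVFx from 58.4 ± 4.78 to 107 ± 11.1 CPM (1.05, adjusted p = 1.64e-05). That call sat at the fold limit and was kept in 13 of 17 alternatives. None of the 9 genes tested was called with ProteinFx.

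The transport gene Slc13a3 was the member of the transport, breakdown and delivery list nearest to Acod1 in its pattern over the 20 libraries. It encodes a plasma membrane carrier for dicarboxylates that can take up itaconate. With PBS, Slc13a3 was at 0.410, 0.927, 0.457 and 0.712 CPM, which is 2 to 6 counts per library. RNY1+/+ EVFx gave 91.3, 83.1, 58.5 and 84.3 CPM, RNY1-/- EVFx 49.8, 62.1, 38.7 and 44.1 CPM, RNY1+/+ ProteinFx 36.2, 44.1, 30.2 and 43.4 CPM, and RNY1-/- ProteinFx 12.3, 15.7, 12 and 12.2 CPM. Treated libraries were thus all far above PBS, and RNY1-/- ProteinFx was the lowest treated group. The log2 fold changes against PBS were 7.06 (standard error 0.24, adjusted p = 9.28e-09), 6.41 (0.25, 1.41e-08), 6.00 (0.25, 6.21e-09) and 4.34 (0.26, 8.38e-07) in the same order, each from few counts in PBS.

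Between genotypes, Slc13a3 fell with RNY1-/- ProteinFx (-1.64, with a standard error of 0.16, adjusted p = 0.000126). With RNY1-/- EVFx it was at -0.63 (0.14, adjusted p = 0.00308), under the fold limit, and -0.24 with adjusted p = 0.127 once trends with GC content and length were removed. The genotype effect of Slc13a3 differed between the fractions by -1.0 (0.23, adjusted p = 0.00627 for the interaction). That call was lost with only replicates 3 and 4 of RNY1-/- ProteinFx.

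Apart from Slc13a3, none of the 14 genes of itaconate transport, breakdown and delivery was called higher in all 4 treatments. Rab32 rose in each by less than the fold limit, with adjusted p at most 0.0446. Its log2 fold changes were 0.82 and 0.73 with RNY1+/+ and RNY1-/- EVFx, and 0.81 and 0.34 with RNY1+/+ and RNY1-/- ProteinFx. Slc25a10, the mitochondrial dicarboxylate carrier, rose with RNY1+/+ EVFx from 4.98 ± 2.96 to 12.1 ± 2.82 CPM (1.43, adjusted p = 0.0097) and stood at 4.80 ± 1.31 CPM with RNY1-/- EVFx. Mmab, which makes the adenosyl form of cobalamin, rose with RNY1+/+ EVFx from 2.17 ± 0.488 to 3.96 ± 0.532 CPM (1.01, adjusted p = 0.00406), a call kept in 9 of 17 alternatives. Abcg2, an efflux pump that can export itaconate, fell with EVFx of both genotypes, from 4.99 ± 0.421 CPM to 1.67 ± 0.305 (-1.40, adjusted p = 0.000306) and 1.53 ± 0.459 (-1.46, adjusted p = 0.000435). Hps4, part of the exchange factor of Rab32 that brings itaconate to vacuoles, fell with RNY1+/+ ProteinFx from 13.3 ± 3.58 to 5.46 ± 0.862 CPM (-1.14, adjusted p = 0.00169), but not once trends with GC content and length were removed. Oxgr1, a receptor for extracellular itaconate, had 0 counts in all 20 libraries, below the floor of 3 counts per library.

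Genes that respond to itaconate or belong to the NRF2 programme include antioxidant enzymes and cytokines. Of 17 tested, 10 rose with EVFx of either genotype, 3 with RNY1+/+ ProteinFx and 2 with RNY1-/- ProteinFx. The difference in these counts was not tested, as the fractions were dosed in different units. Slc7a11, the cystine importer, rose from 5.08 ± 2.59 CPM to 199 ± 57.7 with RNY1+/+ EVFx (5.47, adjusted p = 3e-07) and 198 ± 57.3 with RNY1-/- EVFx (5.53, adjusted p = 2.48e-07). It stood at 10.2 ± 6.25 CPM with RNY1+/+ ProteinFx (1.22, adjusted p = 0.0332), where replicate 4 was at 19.6 CPM and the others at 6.89 to 7.54, a call kept in 12 of 17 alternatives and lost without that replicate, and at 5.68 ± 1.41 with RNY1-/- ProteinFx (0.18, adjusted p = 0.717).

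Gclm, a subunit of the enzyme that starts glutathione synthesis, stood at 214 ± 63.5 CPM with PBS, 1556 ± 189 and 2212 ± 312 with RNY1+/+ and RNY1-/- EVFx, and 218 ± 26.3 and 189 ± 41.8 with ProteinFx. Its log2 fold changes with EVFx were 3.04 (adjusted p = 6.84e-07) and 3.61 (adjusted p = 2.33e-07), and with ProteinFx 0.20 (adjusted p = 0.4) and -0.10 (adjusted p = 0.747). Hmox1, the heme oxygenase, is named here after its values were seen. It rose from 1162 ± 170 CPM to 8711 ± 805 with RNY1+/+ EVFx (3.08, adjusted p = 3.73e-08) and 7082 ± 581 with RNY1-/- EVFx (2.85, adjusted p = 5.96e-08), and stood at 956 ± 152 and 686 ± 55.2 with ProteinFx. Srxn1, which repairs peroxiredoxins, rose with EVFx (2.28, adjusted p = 2.5e-06, and 1.61, adjusted p = 2.76e-06) and fell with ProteinFx of both genotypes (-1.33, adjusted p = 7.16e-05, and -1.52, adjusted p = 0.000145). G6pdx, the first enzyme of the pentose phosphate pathway, rose with RNY1+/+ EVFx (1.15, adjusted p = 0.00101, lost under total counts and without PBS replicate 3), and its fall with RNY1-/- ProteinFx (-1.0, adjusted p = 0.0152) was kept in 10 of 19 alternatives.

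Nfkbiz and Il1b of the same list rose in all 4 treatments. Nfkbiz, which encodes IκBζ, rose from 6.50 ± 2.58 CPM to 118 ± 7.32, 124 ± 2.76, 74.6 ± 13.9 and 30.0 ± 5.58 in RNY1+/+ EVFx, RNY1-/- EVFx, RNY1+/+ ProteinFx and RNY1-/- ProteinFx. Its log2 fold changes were 4.38, 4.51, 3.71 and 2.28, with adjusted p between 3.01e-08 and 0.000121. Il1b, the cytokine interleukin-1 beta, rose from at most 4 counts per PBS library to 49.6 ± 6.54, 20.7 ± 5.88, 39.6 ± 31.9 and 6.11 ± 1.91 CPM in the same order (adjusted p between 3.42e-08 and 0.000162), and its call with RNY1-/- ProteinFx was kept in 13 of 19 alternatives. Tfeb, a factor for lysosome genes, fell with RNY1-/- EVFx (-1.72, adjusted p = 0.00416) and with RNY1+/+ and RNY1-/- ProteinFx (-2.28, adjusted p = 0.00112, and -2.21, adjusted p = 0.00547), from 6.16 ± 3.12 CPM with PBS.

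**Figure D4:**
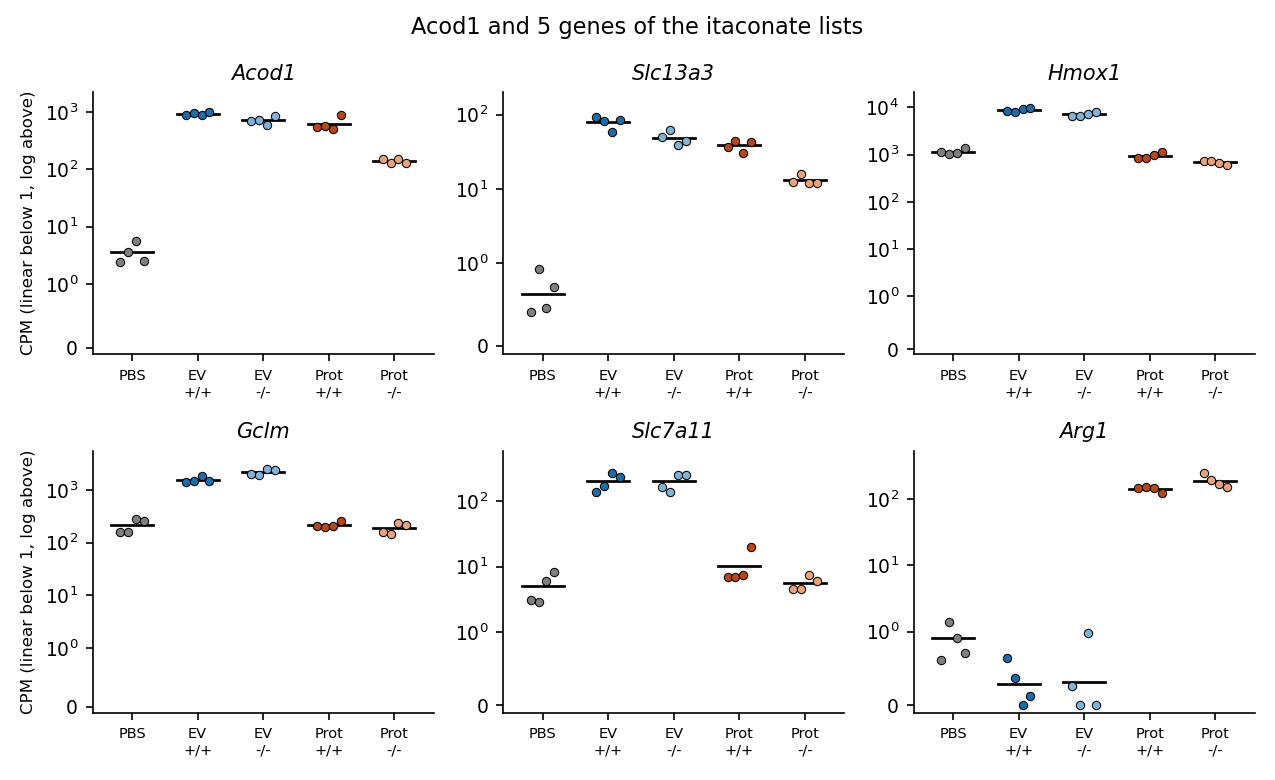
CPM (linear below 1, log above) of Acod1, Slc13a3, Hmox1, Gclm, Slc7a11 and Arg1 in each library (EV is EVFx, Prot is ProteinFx), with a line at each group's mean. Acod1 and Slc13a3 are above PBS in all 16 treated libraries, while Hmox1, Gclm and Slc7a11 are above the PBS range in all 8 EVFx libraries and Arg1 in all 8 ProteinFx libraries.

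Receptors and adaptors that can lead to Acod1 were 18 genes, of which 17 were tested. With RNY1+/+ EVFx 5 rose, with RNY1-/- EVFx 3, with RNY1+/+ ProteinFx 5 and with RNY1-/- ProteinFx 3, and none fell. Tlr1, a receptor for bacterial lipopeptides, rose from 50.1 ± 6.29 CPM to 243 ± 16.3, 240 ± 7.26, 207 ± 22.5 and 135 ± 19.8 in the order RNY1+/+ EVFx, RNY1-/- EVFx, RNY1+/+ ProteinFx and RNY1-/- ProteinFx. Its log2 fold changes were 2.46, 2.50, 2.22 and 1.5, with adjusted p between 3.01e-08 and 4.61e-05. Tnfrsf1b, a TNF receptor, rose in the same 4 comparisons (2.58, 2.55, 2.04 and 1.11, adjusted p between 3.35e-08 and 4.11e-05). Tlr3, the receptor for double-stranded RNA, rose with ProteinFx of both genotypes (2.37, adjusted p = 2.99e-07, and 1.92, adjusted p = 3.81e-05) and with RNY1+/+ EVFx (1.14, adjusted p = 0.00158, lost under total counts). Tlr2 rose in all but RNY1-/- ProteinFx (1.72, 1.48 and 1.22, adjusted p at most 0.000449). Cd14, a co-receptor of lipopolysaccharide, rose with RNY1+/+ EVFx alone by call (1.43, adjusted p = 4.8e-05). It was at 0.74 (adjusted p = 0.00341) with RNY1-/- EVFx and -0.55 (adjusted p = 0.0688) with RNY1-/- ProteinFx. Tbk1, a kinase upstream of interferon factors, rose with RNY1+/+ ProteinFx alone by call (1.11, adjusted p = 4.15e-05, lost under 2 of 17 alternatives). Inside the fold limit, Tbk1 also rose with RNY1+/+ EVFx (0.80, adjusted p = 0.000496), RNY1-/- EVFx (0.98, adjusted p = 6.37e-05) and RNY1-/- ProteinFx (0.85, adjusted p = 0.00257).

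All 18 transcription factors upstream of Acod1 were tested. Rising and falling members were 9 and 0 with RNY1+/+ EVFx, 6 and 2 with RNY1-/- EVFx, 8 and 2 with RNY1+/+ ProteinFx and 6 and 1 with RNY1-/- ProteinFx. Batf, an AP-1 family factor, rose from 4.57 ± 1.47 CPM to 55.7 ± 9.40, 39.6 ± 5.24, 26.5 ± 3.80 and 12.8 ± 0.994 in the same order (3.75, 3.32, 2.68 and 1.52, adjusted p between 1.49e-07 and 0.000621). Cebpb, the factor C/EBPβ, rose from 299 ± 27.2 CPM to 1254 ± 15.9, 1249 ± 76.5, 1188 ± 88.4 and 781 ± 46.9 (2.24, 2.30, 2.16 and 1.45, adjusted p between 3.89e-08 and 5.66e-06). The interferon factor Irf7 rose in all 4 treatments (2.36, 2.01, 2.49 and 2.18, adjusted p at most 0.000189).

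The 5 NF-κB subunits on the list went different ways, and Relb, Rel and Nfkb1 are named after their values were seen. Nfkb2 (1.59, adjusted p = 0.000324) and Relb (1.42, adjusted p = 0.000253) rose with RNY1+/+ EVFx. Rel (1.05, adjusted p = 2.71e-05) and Nfkb1 (1.1, adjusted p = 0.000118) rose with RNY1+/+ ProteinFx, calls that were both lost under total counts and with trends in GC content and length removed. None of the 5 was called higher with RNY1-/- fluid of either fraction, but some rose by less than the fold limit. With RNY1-/- EVFx, Rel was at 0.77 (adjusted p = 0.000351), Nfkb1 at 0.79 (adjusted p = 0.000687) and Relb at 0.68 (adjusted p = 0.0154). With RNY1-/- ProteinFx, Rel was at 0.88 (adjusted p = 0.00225) and Nfkb1 at 0.79 (adjusted p = 0.0167), while Relb was at 0.02 and Nfkb2 at -0.65 (adjusted p = 0.956 and 0.103). Rela, the p65 subunit, was at 30.6 ± 12.5 CPM with PBS and fell to 11.5 ± 2.1 with RNY1-/- EVFx (-1.17, adjusted p = 0.00509), 11.3 ± 2.78 with RNY1+/+ ProteinFx (-1.27, adjusted p = 0.00499) and 13.5 ± 4.66 with RNY1-/- ProteinFx (-1.09, adjusted p = 0.0274). Each of these Rela calls was lost once trends with GC content and length were removed, and the last was kept in 11 of 19 alternatives. Irf8, a factor of macrophage identity, fell with RNY1-/- EVFx (-1.38, adjusted p = 4.99e-05) and RNY1+/+ ProteinFx (-1.10, adjusted p = 0.00017, lost with those trends removed). It was also lower, inside the fold limit, with RNY1+/+ EVFx (-0.97, adjusted p = 0.00111) and RNY1-/- ProteinFx (-0.83, adjusted p = 0.0235).

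Of 16 feedback inhibitors, which damp the same signals, 10 of 13 tested rose with RNY1+/+ EVFx, 8 of 13 with RNY1-/- EVFx, 11 of 14 with RNY1+/+ ProteinFx and 6 of 13 with RNY1-/- ProteinFx. Socs3, which restrains cytokine receptors, had 4 or 5 counts per PBS library and rose to 31.5 ± 4.03, 14.2 ± 1.95, 50.3 ± 18.3 and 18.3 ± 1.58 CPM in that order (5.45, 4.36, 6.11 and 4.54, adjusted p at most 1.84e-07). Nfkbia, the inhibitor IκBα, rose from 138 ± 6.49 CPM to 1141 ± 52.5, 901 ± 96.2, 527 ± 91.4 and 285 ± 24.3 (3.23, 2.95, 2.11 and 1.12, adjusted p at most 2.97e-05). Il1rn, the interleukin-1 receptor antagonist, rose from 45.6 ± 8.30 CPM to 129 ± 18.5 with RNY1+/+ EVFx and to 526 ± 153 and 194 ± 16.4 with RNY1+/+ and RNY1-/- ProteinFx (1.68, 3.70 and 2.15, adjusted p at most 5.63e-06). With RNY1-/- EVFx, Il1rn was at 0.98 (adjusted p = 0.00109), inside the fold limit. Trib1, a pseudokinase, was the only feedback inhibitor tested to fall, with RNY1-/- EVFx (-1.13, adjusted p = 0.00278, lost with trends in GC content and length removed).

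Other metabolic enzymes of activated macrophages rose in 11 of 14 tested with RNY1+/+ EVFx, 10 of 14 with RNY1-/- EVFx, 12 of 15 with RNY1+/+ ProteinFx and 10 of 14 with RNY1-/- ProteinFx, and none fell. Nos2, the inducible nitric oxide synthase, was at or below 2 counts in each PBS library, and its mean levels were 13.4 ± 6.54, 12.8 ± 5.29, 12.8 ± 6.38 and 3.76 ± 2.77 CPM in the 4 treatments. Ptgs2, cyclooxygenase-2, rose from 0.791 ± 0.343 CPM (3 to 5 counts) to 58.7 ± 5.00 and 65.0 ± 21.1 with RNY1+/+ and RNY1-/- EVFx and to 14.4 ± 8.52 and 6.87 ± 3.31 with ProteinFx (6.42, 6.63, 4.40 and 3.13, adjusted p at most 0.000497). Ass1, which recycles citrulline to arginine, rose from 1.90 ± 0.255 CPM to 59.0 ± 16.5, 39.1 ± 4.08, 26.3 ± 7.43 and 18 ± 2.63 (adjusted p at most 5.53e-07).

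Arg1, which competes with Nos2 for arginine, was high with ProteinFx and near 0 with EVFx. It was at 0.615, 1.39, 0.915 and 0.712 CPM with PBS, and at most 0.646 CPM with RNY1+/+ EVFx and 0.985 CPM with RNY1-/- EVFx. RNY1+/+ ProteinFx libraries were at 146, 149, 144 and 121 CPM and RNY1-/- ProteinFx libraries at 242, 193, 165 and 151 CPM. Every ProteinFx library was thus far above every PBS and EVFx library, with log2 fold changes against PBS of 7.35 (adjusted p = 2.35e-10) and 7.68 (adjusted p = 1.72e-08). Between genotypes of ProteinFx, where Acod1 was at -2.23 on that scale, Arg1 was at 0.34 (standard error 0.13, adjusted p = 0.166).

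With RNY1-/- against RNY1+/+ ProteinFx, 13 of the 117 list genes tested were called lower and none higher. Of all genes tested, 1.17% fell and 0.659% rose. Fallen genes were Slc13a3 among the transporters, Il1b (-2.74, adjusted p = 0.00478) and Nfkbiz (-1.43, adjusted p = 0.000558) among the itaconate-responsive genes, Batf (-1.14, adjusted p = 0.000695) among the transcription factors, 5 feedback inhibitors and 4 metabolic enzymes. All 14 feedback inhibitors tested had a log2 fold change below 0, with a median of -0.88 beside 0.02 over all genes. An adjusted p under 0.05 was reached by 10 of the 14. The 5 that also passed the fold limit were Socs3 (-1.55, adjusted p = 0.00171), Il1rn (-1.53, adjusted p = 0.000353), Irak3 (-1.31, adjusted p = 0.000558), Tnfaip3 (-1.10, adjusted p = 0.00844) and Usp18 (-1.09, adjusted p = 0.000353). Irak3 and Tnfaip3 damp toll-like receptor signalling and Usp18 interferon signalling.

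The 4 enzymes that fell with RNY1-/- ProteinFx were Ptges, which makes prostaglandin E (-1.82, adjusted p = 0.00581), Nos2 (-1.75, adjusted p = 0.0321), Cmpk2, a mitochondrial nucleotide kinase (-1.41, adjusted p = 0.000126), and Rsad2, the antiviral protein viperin (-1.39, adjusted p = 8.46e-05). Rsad2 stood at 3733 ± 214 CPM with RNY1+/+ and 1508 ± 133 with RNY1-/- ProteinFx, and Cmpk2 at 1137 ± 74.9 and 453 ± 74.4. No TCA cycle enzyme was called, and none of the 18 had an adjusted p under 0.05. With only replicates 1 and 2 of RNY1-/- ProteinFx 16 list genes fell, and with only replicates 3 and 4 it was 14. Nos2 was called in 13 of 19 alternatives, Tnfaip3 in 15 and Usp18 in 16. Over all genes, scaling by total counts gave 101 rising and 99 falling genes in place of 69 and 122.

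With RNY1-/- against RNY1+/+ EVFx, 6 of 117 list genes were called lower and none higher, where 1.98% of all genes tested fell and 0.378% rose. The 6 were Il1b (-1.21, adjusted p = 0.000279), Slc25a10 (-1.26, adjusted p = 0.000537), Nfkb2 (-1.17, adjusted p = 0.000344), Rela (-1.08, adjusted p = 0.000401), Socs3 (-1.07, adjusted p = 0.000199) and Ticam1, the adaptor TRIF (-1.03, adjusted p = 0.000574). Across genes, which are not independent replicates, the log2 fold change of this comparison had a Spearman's rho of -0.65 with GC content, against 0.16 for the genotypes of ProteinFx. With trends in GC content and length removed, 1 list gene (Il1b) was called, and 47 genes rose and 45 fell in place of 39 and 204. Without RNY1+/+ EVFx replicate 4 the count was 3. Acod1 itself was at -0.35 with the trends removed.

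The genotype effect differed between the fractions, by the interaction term, for 45 of 117 list genes (12 more positive and 33 more negative in ProteinFx), while 33% of all genes tested passed the same limit of adjusted p under 0.05 at any size. The share of list genes was thus near that of all genes. Among all genes that also passed an absolute log2 difference of 1, 557 were more positive and 257 more negative in ProteinFx. With trends in GC content and length removed, these numbered 214 and 208. For the list genes, the split was 21 positive and 23 negative under total counts. Their count was 11 with only replicates 3 and 4 of RNY1-/- ProteinFx and 64 with only replicates 1 and 2. Among the negative members were Nfkbiz (-1.58, adjusted p = 0.000186), Tnfaip3 (-1.5, adjusted p = 0.00187), Rsad2 (-1.59, adjusted p = 0.00283) and Cmpk2 (-1.67, adjusted p = 0.00529). Among the positive ones were Rela (1.29, adjusted p = 0.00689) and Ticam1 (1.29, adjusted p = 0.00633). All 6 carried this sign with trends in GC content and length removed.

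The genes whose profile was most like that of Acod1 were taken by the smallest root mean square difference of standardised log2 CPM, among 7551 genes with a mean of at least 10 CPM. Over all 20 libraries they were, from the nearest, Tlr1, Sod2, Slc13a3, Cebpb, Bcl2a1a, H2-M2, Rasgrp1 and Mthfd2, at 0.132 to 0.163 SD, where the median gene was at 1.28. Over the 16 treated libraries they were Fpr2, Sod2, Acsl1, Bcl2a1a, Fpr1, Cebpb, Rasgrp1 and Pilra, at 0.169 to 0.234 SD beside a median of 1.31. These genes were picked for this likeness, so their levels are a description. Part of the first likeness is the step from PBS to any treatment, which all 8 share.

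Sod2, the mitochondrial superoxide dismutase, stood at 84.2 ± 7.12 CPM with PBS, 1782 ± 120 with RNY1+/+ EVFx, 1672 ± 116 with RNY1-/- EVFx, 1340 ± 331 with RNY1+/+ ProteinFx and 467 ± 63.4 with RNY1-/- ProteinFx. Fpr2, a formyl peptide receptor, was nearest to Acod1 among treated libraries, at 113 ± 4.68, 83.6 ± 8.73, 49.0 ± 16.6 and 9.53 ± 2.03 CPM in the same order of treatments and 0.912 ± 0.329 CPM with PBS. Fpr1, a related receptor, stood at 61.5 ± 10.2, 38.3 ± 7.58, 54.9 ± 26.1 and 7.35 ± 1.55 CPM, and did not pass 4 counts with PBS. Acsl1, which activates long-chain fatty acids, was at 482 ± 78.5, 362 ± 77.2, 262 ± 101 and 93.5 ± 6.97 CPM, and 35.0 ± 2.88 with PBS. Each of these 4 genes had its lowest treated level with RNY1-/- ProteinFx, as Acod1 did. Bcl2a1a has near-identical copies and fractional counts, so its level is uncertain. Sod2 and Gclm also hold shares of reads that map to more than 1 place.

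**Figure D5:**
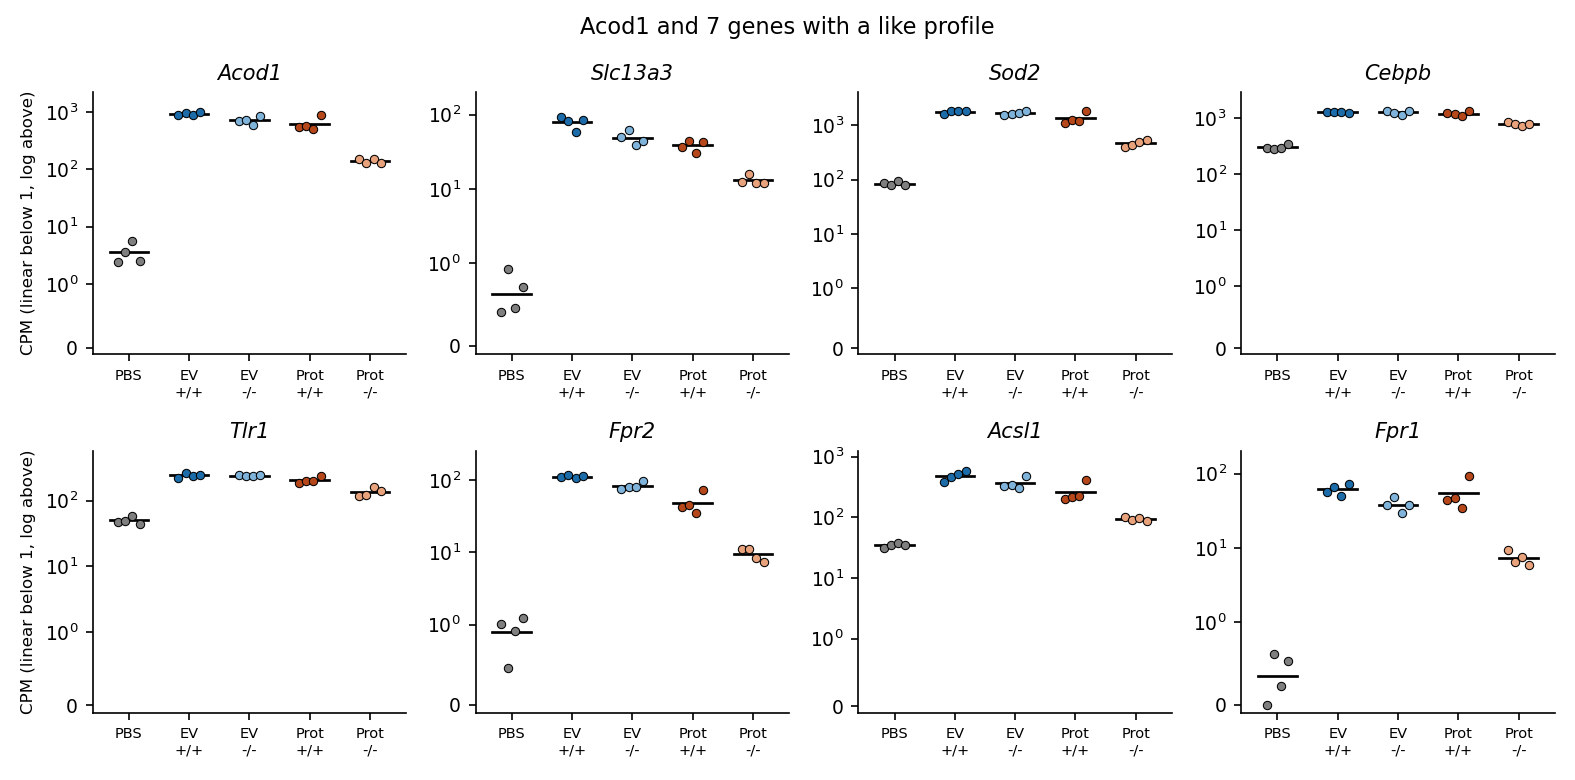
CPM (linear below 1, log above) of Acod1 and 7 of the genes most like it, in each library (EV is EVFx, Prot is ProteinFx), with a line at each group's mean. In all 8 panels the 16 treated libraries lie above PBS, and RNY1-/- ProteinFx is the lowest treated group.

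The protein-coding genes Lmo7 and Kctd12 come before Acod1 in RefSeq order. Lmo7 averaged at most 0.525 CPM in any group and was not tested. Kctd12 rose with RNY1+/+ ProteinFx from 118 ± 22.7 to 295 ± 59.2 CPM (1.5, adjusted p = 2.89e-05) and was called in none of the other 5 comparisons. The reference genes Rab14, Arpc2 and Cltc were between -0.17 and 0.17 on the log2 scale in all 6 comparisons, with no call, and scaling to them left Acod1 at 8.26, 7.98, 7.57 and 5.36 against PBS and at -0.28 and -2.21 between genotypes of EVFx and ProteinFx.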

How the data were processed

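The authors deposited 1 matrix with expected counts and CPM for 20 libraries. Per the labels and the study's methods, a service provider made oligo(dT)-primed 3′-end libraries with unique molecular identifiers (UMIs), filtered reads with fastp 0.24.0, aligned them with STAR 2.7.11 (build GRCm39, from the submitters' processing notes), removed duplicates by UMI and counted exons and 3′ UTRs by strand with featureCounts (Subread 2.1.1). Reads mapping to several places were shared as fractions, so the deposited counts are expected counts, and the authors computed CPM from them by scaling each library to a common total. Counts stand for molecules, and intervals and errors from counts cover counting error only. Levels of 3 counts or fewer in a library were read as below the floor.

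Expected counts were rounded and tested with edgeR 4.0.16 in R 4.3.3 (TMM, glmQLFit, glmQLFTest) on the 8 libraries of each comparison, keeping genes that passed filterByExpr with mean CPM not under 3, with Benjamini-Hochberg adjustment over all genes tested. The interaction was fitted on the 16 treated libraries. Standard errors were obtained by dividing each log2 fold change by the root of its F statistic. Levels are the deposited CPM, with SD over 4 libraries. Distances between libraries are Euclidean distances of log2 CPM. Likeness used a prior count of 2. Acod1, the gene lists and the tests were chosen with earlier results of these data known. Named were Acod1, per list and comparison up to 3 called genes in each direction (any gene where 5 or fewer are counted), 8 genes most like Acod1 over each set of libraries, its neighbours and the reference genes. Some genes these rules name are not reported here. Alternatives were DESeq2 1.42.0, scaling by total counts or by the reference genes Rab14, Arpc2 and Cltc, other filters, all 20 libraries in 1 fit, libraries thinned to the smallest total, a replicate block, removal of trends with GC content and length, each library left out and, added after seeing the data, fits with only replicates 1 and 2, or 3 and 4, of RNY1-/- ProteinFx. Hmox1, Relb, Rel and Nfkb1 were named outside these rules. The fits were tested on simulated data with 200 changed genes. GC content and length came from GENCODE on GRCm38, and a protein sequence was not used here.

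Replicate numbers recur across groups, with no shared source stated. The deviations of same-numbered libraries correlated above 0.1 in all 4 pairs for RNY1-/- EVFx and PBS only (0.13 to 0.38). Such a correlation cannot show a shared source, so the main fits of all comparisons were unpaired. Values with a replicate block are in the closing section.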

Additional observations from a re-analysis of the deposited data

Results flagged for a closer look

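Among 50 genes in 5 groups of 4 libraries, 12 of 250 groups held a library farther from the rest than Dixon's 95% limit allows, and chance alone flags about 1 in 20. Acod1 was 867 CPM in RNY1+/+ ProteinFx replicate 4, against at most 556 in the others. The same library was high for Il1b (87.1 CPM, next 28.9), Slc7a11 (19.6, next 7.54), Gclm (257, next 208), Ptges (16.1, next 7.77) and Acsl1 (414, next 221). RNY1+/+ ProteinFx replicate 2 was low for Rela (7.10, next 12.5). In RNY1-/- ProteinFx, replicate 2 was high for Slc13a3 (15.7, next 12.3) and Mmab (3.50, next 1.82), and replicate 4 for Abcg2 (8.30, next 5.10). RNY1-/- EVFx replicate 2 was high for Batf (47.4, next 38.0) and PBS replicate 2 for Cmpk2 (43.3, next 37.3).

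The genotype effect differed between fractions, by edgeR's interaction test with adjustment over all genes, for 45 list genes, while 33% of all genes tested passed the same limit. The 24 of them described in the report are given here, as the log2 effect in ProteinFx minus that in EVFx. More negative in ProteinFx were Nos2 (-1.76), Cmpk2 (-1.67), Rsad2 (-1.59), Nfkbiz (-1.58), Ptgs2 (-1.56), Il1b (-1.54), Tnfaip3 (-1.5), Slc13a3 (-1.0), Tnfrsf1b (-0.90), Gclm (-0.87), Il1rn (-0.85), Irak3 (-0.84), Usp18 (-0.82), Tlr1 (-0.77), Cebpb (-0.76), Batf (-0.72), Nfkbia (-0.71) and Tbk1 (-0.44). More positive were Rela (1.29), Ticam1 (1.29), Hps4 (1.16), Idh3g (1.15), G6pdx (0.80) and Irf8 (0.70). Adjusted p values of these 24 ran from 0.000186 (Nfkbiz) to 0.0426 (Il1b). The calls of Il1b, Nos2 and Tbk1 were kept in 11, 14 and 12 of 27 alternatives.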

How the results depend on the processing

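The sign of Acod1 held in every comparison under all alternatives run, and its values moved by less than the spread between libraries. Leaving out each library gave 8.10 to 8.51, 7.80 to 8.20, 7.40 to 7.90 and 5.24 to 5.65 against PBS (RNY1+/+ EVFx, RNY1-/- EVFx, RNY1+/+ ProteinFx, RNY1-/- ProteinFx), -0.44 to -0.24 and -2.33 to -2.0 between genotypes of EVFx and ProteinFx, and -2.02 to -1.70 for their difference. With the replicate block Acod1 was at 8.24, 7.91, 7.60, 5.38, -0.32, -2.19 and -1.87, and the count of list genes was 52, 47, 45, 32, 6, 13 and 51 in place of 52, 46, 45, 32, 6, 13 and 45, so the block moved no count by more than 1.5 times. For RNY1-/- ProteinFx and PBS, same-numbered libraries correlated at 0.51, 0.622 and 0.641 in replicates 1 to 3 but at 0.0182 in replicate 4. Whether same-numbered libraries share a source is not stated, and no main fit was paired. Dropping the fold limit gave 87, 85, 78, 60, 67 and 25 changed list genes in the 6 comparisons. Removing GC content and length trends left 1 of 6 list genes between genotypes of EVFx, where leaving out libraries gave 3 to 8. With replicates 3 and 4 alone of RNY1-/- ProteinFx, 11 list genes in place of 45 had a genotype effect that differed between fractions, against 64 with replicates 1 and 2 alone, and the cause was not tested. DESeq2 gave 52, 48, 45, 32, 6, 14 and 46 list genes. Of the 8 genes most like Acod1, 7 stayed over 20 libraries and 7 over 16 under total counts, and 6 and 8 with a prior count of 5. Depth limits PBS, where Acod1 has 12 to 25 counts.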
